A study of Mus musculus with 11 samples.

Results

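Elastic fibre genes were examined in corticotropin releasing factor receptor 1-expressing (CRF1+) cells of the mouse medial prefrontal cortex (mPFC) during withdrawal from chronic ethanol. The group comprised 10 of the 53465 genes in the count files: the fibulins Fbln1, Fbln2, Fbln5, Efemp1 (fibulin-3) and Efemp2 (fibulin-4), the fibrillins Fbn1 and Fbn2, elastin (Eln), and the microfibril-associated genes Mfap4 and Mfap5. Fbln1 was selected on its measured rise in the withdrawn mice of these same data, so its difference between groups is given as a description without a test. The other 9 genes were taken as members of the same families and structures. Of the 10 genes, 9 had enough counts to enter the comparison of 17093 genes, and Mfap5 did not.

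Elastic fibres give tissues the ability to stretch and recoil. They consist of a core of cross-linked elastin laid down on a scaffold of fibrillin microfibrils, and short fibulins guide tropoelastin (the soluble elastin precursor) onto that scaffold. In the brain these proteins are best known from vessel walls and the meninges, and several fibulins also occur in basement membranes.

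The cells were sorted by fluorescence from adult male CRF1:GFP reporter mice over 10 weeks of age, in which GFP marks cells that use the CRF1 promoter, and each of the 11 RNA libraries came from 1 mouse. The 5 withdrawn mice breathed ethanol vapor intermittently over 5 to 6 weeks, were injected with ethanol and pyrazole (an inhibitor of alcohol dehydrogenase), and had been abstinent for 5 to 8 days when sampled. The 6 naïve mice received pyrazole and air, so pyrazole was common to both groups. Withdrawn mice 3, 4 and 5 carry a second label that calls them control, and the overall design as deposited lists 5 control and 6 ethanol animals, so values without these 3 mice are given where they bear on a result.

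Each library held between 7351567 and 22244869 counts on genes, and expression is given as CPM, counts scaled to a normalized library size, where 3 counts in 1 library correspond to 0.140 to 0.369 CPM. The receptor gene of the sorted cells, Crhr1, was at 92.7 ± 21.5 CPM in the naïve group (SD, n = 6) and at 89.3 ± 33.6 CPM among withdrawn mice (SD, n = 5). Slc17a7, the vesicular glutamate transporter of cortical excitatory neurons, was at 1435 ± 346 and 1362 ± 447 CPM. Naïve mouse 5 had the fewest genes detected (15585), and 6 of the 10 elastic fibre genes had no count in it. In these bulk samples, fewer cells of a type and less RNA per cell cannot be told apart.

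Upstream sequence was looked up in RefSeq (GRCm38.p6), where 6 of the 10 genes matched an entry. Fbln1, Efemp1 and Efemp2 followed 1 pattern over the mice, described below, and their sequence from base -250 to base -6 before the RefSeq start is shown so that the shared pattern can be set beside the letters. Capitals mark matches, on either strand, to 5 short promoter motifs. These were the TATA motif spelled TATAAA, the NF-Y motif spelled CCAAT, the Sp1 motif spelled GGGCGG (a GC box), the AP-1 motif spelled TGANTCA and the E-box motif spelled CACGTG. The windows lie at chr15:85205699-85205943 (Fbln1), chr11:28852955-28853199 (Efemp1) and chr19:5473696-5473940 (Efemp2), all on the plus strand.
Fbln1: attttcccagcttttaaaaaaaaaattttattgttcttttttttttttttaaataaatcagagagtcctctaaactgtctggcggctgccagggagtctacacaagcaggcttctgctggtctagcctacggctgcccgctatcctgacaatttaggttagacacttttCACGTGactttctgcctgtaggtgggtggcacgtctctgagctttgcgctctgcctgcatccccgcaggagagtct
Efemp1: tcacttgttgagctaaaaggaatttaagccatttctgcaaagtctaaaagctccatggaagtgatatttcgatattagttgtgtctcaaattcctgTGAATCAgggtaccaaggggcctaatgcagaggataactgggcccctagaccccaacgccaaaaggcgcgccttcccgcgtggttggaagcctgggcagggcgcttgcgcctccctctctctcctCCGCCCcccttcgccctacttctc
Efemp2: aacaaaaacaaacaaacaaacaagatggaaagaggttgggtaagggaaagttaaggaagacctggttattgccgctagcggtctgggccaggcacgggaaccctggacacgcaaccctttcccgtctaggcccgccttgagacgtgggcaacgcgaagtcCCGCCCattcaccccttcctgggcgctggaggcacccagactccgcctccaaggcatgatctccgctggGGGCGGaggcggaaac
The Fbln1 window held an E-box at -81 to -76, a motif found in 5.86% of the 32841 windows of the same length. The Efemp1 window held a match to the AP-1 letters at -154 to -148 (6.67% of windows) and a GC box at -29 to -24 (32.1%). The Efemp2 window held GC boxes at -90 to -85 and at -21 to -16. The matches did not overlap one another, none of the motifs was common to all 3 windows, and no match to TATAAA (12.2% of windows) or CCAAT (33.5%) was present in them. A match to these letters is a description of the sequence only.

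Fbln1 encodes fibulin-1, a secreted calcium-binding glycoprotein of basement membranes and elastic fibres (chr15:85205949-85286535, plus strand). It was at 5.99 to 30.2 CPM in the naïve mice, with a median of 11.2. The withdrawn mice 1 to 5 were at 297, 21.2, 208, 399 and 99.0 CPM. Withdrawn mice 1, 3, 4 and 5 lay above every naïve mouse, and withdrawn mouse 2 lay inside the naïve range. Mean CPM was 15.3 ± 9.30 (SD, n = 6) against 205 ± 151 (SD, n = 5), which is a ratio of 13.4, and the fitted log2 fold change was 3.74 (SE 0.62). It was 4.01 without withdrawn mouse 2 and 3.36 without the 3 mice with conflicting labels. The latter fit kept only withdrawn mice 1 and 2, at 297 and 21.2 CPM, so the rise in it came from mouse 1.

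Efemp1 encodes fibulin-3, a short fibulin of the extracellular matrix (chr11:28853204-28926743, plus strand). It showed the widest difference among the 9 genes compared. Naïve mice ranged from 0 to 20.5 CPM with a median of 6.53, whereas withdrawn mice 1 to 5 were at 452, 0, 336, 654 and 119 CPM. Withdrawn mouse 2 had no Efemp1 count at all, and the other 4 withdrawn mice each exceeded every naïve mouse. The log2 fold change was 5.37 (SE 1.21), and the adjusted p was 0.137 in edgeR's quasi-likelihood test, so the gene was not called over all 11 mice. It was called by DESeq2 (5.44, SE 1.48, adjusted p = 0.0214) and by edgeR when withdrawn mouse 2, the withdrawn mouse without a count, was left out (5.67, adjusted p = 0.00588).

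Efemp2 encodes fibulin-4, which brings lysyl oxidase to tropoelastin (chr19:5473954-5482517, plus strand). It was at 6.47 to 14.8 CPM in the naïve mice with a median of 11.1, the narrowest spread of the fibulins relative to its mean (10.6 ± 3.07 CPM, SD, n = 6). Withdrawn mice 1 to 5 were at 61.9, 0.784, 47.8, 50.8 and 18.6 CPM. Withdrawn mouse 2 was below the lowest naïve mouse and the other 4 were above the highest. Its log2 fold change of 1.76 (SE 0.66) was not called in edgeR's quasi-likelihood test (adjusted p = 0.502) or in DESeq2 (adjusted p = 0.188). Without withdrawn mouse 2, the lowest mouse for this gene, the log2 fold change was 2.05 with an adjusted p of 0.0155 in edgeR. A gene on the opposite strand, Mus81, shares 173 of the 3788 exonic bases of Efemp2.

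Fbln5 encodes fibulin-5, a tropoelastin-binding protein needed for elastic fibre assembly (chr12:101746565-101819055, minus strand). It was at 0 to 14.5 CPM in the naïve mice with a median of 5.12, and at 24.3, 40.5, 17.6, 59.6 and 6.86 CPM in withdrawn mice 1 to 5. Here withdrawn mouse 2 was among the high mice and withdrawn mouse 5 was the 1 that fell within the naïve range. With a log2 fold change of 2.40 (SE 1.04, edgeR adjusted p = 0.649) the gene was not called.

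Fbln2, a larger fibulin of basement membranes and vessel walls (chr6:91212455-91272540, plus strand), overlapped widely between the groups. It ranged from 1.83 to 34.2 CPM in naïve mice with a median of 12.1, and was at 6.92, 43.4, 5.93, 19.6 and 16.3 CPM in withdrawn mice 1 to 5. Only withdrawn mouse 2 lay above the naïve range. A log2 fold change of 0.47 (SE 0.72, edgeR adjusted p = 0.946) became -0.15 when that mouse was left out, and 1.01 without naïve mouse 6.

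**Figure D1:**
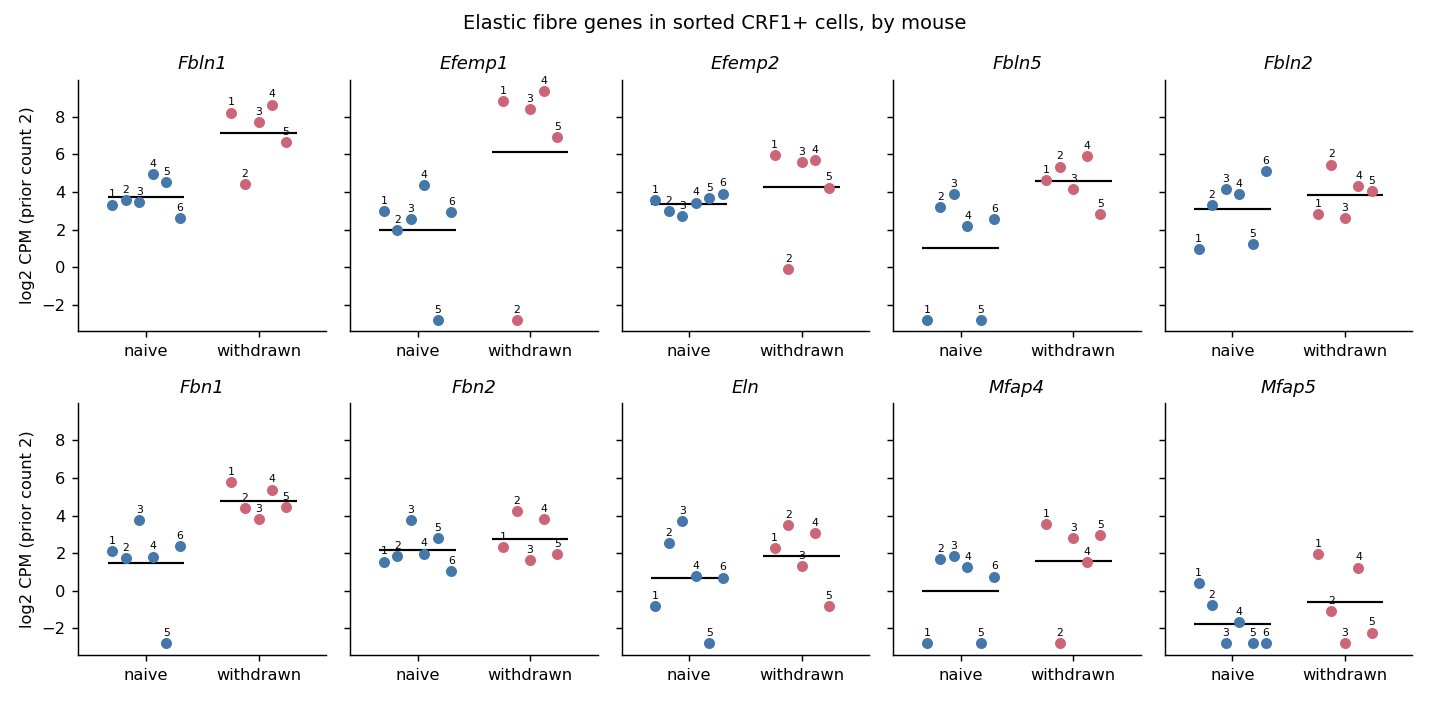
Expression of the 10 elastic fibre genes in each mouse, as log2 CPM with a prior count of 2, by group (6 naïve, 5 withdrawn mice). Each point is 1 mouse, numbered by its replicate, and black lines are group means. Withdrawn mouse 2 sits apart from the other withdrawn mice for Fbln1, Efemp1 and Efemp2 and is among the higher ones for Fbln5, Fbln2, Fbn2 and Eln, and the lowest points on the axis (-2.80) are mice with no count.

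Fbn1, which encodes fibrillin-1, the main structural protein of adult microfibrils, was the single member whose groups did not overlap (chr2:125300594-125507993, minus strand). Naïve mice were at 0 to 13.4 CPM with a median of 3.78, and withdrawn mice 1 to 5 at 54.2, 21.0, 14.0, 41.7 and 21.6 CPM. The lowest withdrawn mouse (mouse 3) was close to the highest naïve mouse (also mouse 3). Among all genes compared, 0.690% had every withdrawn mouse above every naïve mouse. Fbn1 had a log2 fold change of 2.65 (SE 0.81), not called by edgeR (adjusted p = 0.334) and called by DESeq2 (2.70, SE 0.79, adjusted p = 0.0414). The gene Gm9913 on the opposite strand shares 2442 of the 12128 exonic bases of Fbn1, and since whether reads were counted by strand is not given in the sources used here, reads from the 2 genes may not be separable.

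Fbn2, the fibrillin of developing tissues (chr18:58008623-58210487, minus strand), was at 1.91 to 13.2 CPM in naïve mice with a median of 3.62. It was at 4.83, 18.5, 2.94, 13.9 and 3.68 CPM in withdrawn mice 1 to 5, where mice 2 and 4 lay above the naïve range and the others within it. For Fbn2 the log2 fold change was 0.71 (SE 0.67, edgeR adjusted p = 0.892), and it was 0.22 without withdrawn mouse 2 and 1.22 without naïve mouse 3.

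Eln, the gene of the elastic core itself (chr5:134702593-134747323, minus strand), was low throughout. Naïve mice ranged from 0 to 12.9 CPM with a median of 1.53, and withdrawn mice were at 4.75, 11.2, 2.34, 8.24 and 0.425 CPM. No withdrawn mouse exceeded the highest naïve mouse. For Eln it was 0.55 (SE 1.13, edgeR adjusted p = 0.963), an error that leaves both directions possible. It was 0.08 without withdrawn mouse 2 and 1.56 without naïve mouse 3.

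Mfap4, which encodes a fibrinogen-like protein that binds fibrillin and elastin (chr11:61485431-61488900, plus strand), was at 0 to 3.47 CPM in naïve mice with a median of 1.91. Withdrawn mice 1 to 5 were at 11.6, 0, 6.82, 2.71 and 7.71 CPM, so that mice 1, 3 and 5 lay above the naïve range. Mfap4 had a log2 fold change of 1.73 (SE 1.27, edgeR adjusted p = 0.852). Mfap5, which encodes the microfibril-associated glycoprotein MAGP2 (chr6:122505845-122529290, plus strand), had 11, 8, 0, 3, 0 and 0 counts in naïve mice 1 to 6 and 51, 3, 0, 18 and 1 counts in withdrawn mice 1 to 5. It did not pass the filter on low counts, and DESeq2, run without that filter, gave a log2 fold change of 2.15 (SE 1.65, adjusted p = 0.727).

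Set beside all genes, the 8 compared members other than Fbln1 all had a log2 fold change above 0, as did 51.8% of the 17093 genes. Their median log2 fold change was 1.75, against 0.02 over all genes. None of the 8 members other than Fbln1 was called by edgeR's quasi-likelihood test, which called 0.00585% of all genes (1 gene, not a member). An unadjusted p under 0.05 with a higher level in withdrawn mice was found in 4 of these 8 members (Efemp1, Efemp2, Fbn1 and Fbln5) and in 5.00% of all genes. DESeq2 called 2 of the 9 members other than Fbln1, Efemp1 and Fbn1, and 0.838% of 40831 genes as higher. DESeq2 shares, here and below, are of all genes to which it gave a p, many of them under the low-count filter. Their base is thus wider than the 17093 genes compared by edgeR. Without withdrawn mouse 2, edgeR called Efemp1 and Efemp2 (1.06% of all genes were called higher), and DESeq2 called Efemp1, Efemp2 and Fbn1 (1.28%). That mouse had the lowest Efemp1 and Efemp2 of the withdrawn mice, so leaving it out favours calls of these genes. In edgeR, leaving out any other single mouse gave no call among the members other than Fbln1. Without a filter on low counts, edgeR called Efemp1 (0.325% of all genes were called higher). At least 4 of the 5 withdrawn mice lay above every naïve mouse in 4 of the 8 members other than Fbln1 (Efemp1, Efemp2, Fbn1 and Fbln5), and in 4.60% of all genes. The members were chosen with earlier results of these data known, and a member measured at a low level in naïve mice entered the comparison through its level in withdrawn mice.

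**Figure D2:**
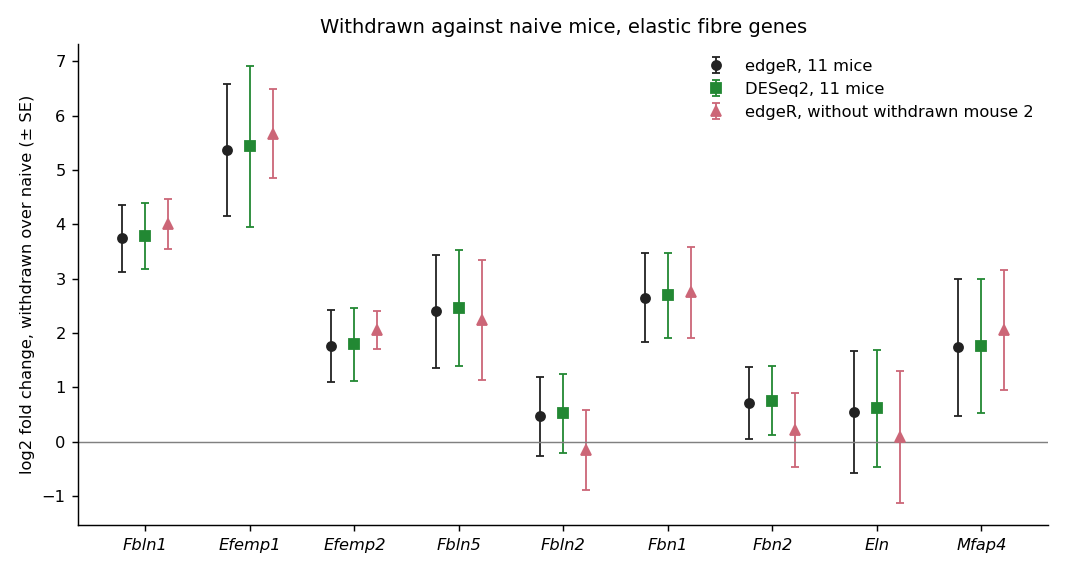
Log2 fold changes (withdrawn over naïve, ± SE) of the 9 elastic fibre genes compared, fitted by edgeR and by DESeq2 over 11 mice and by edgeR without withdrawn mouse 2. Efemp1 had the highest value (5.37 by edgeR), and the bars of Fbln2 and Eln span 0 in every fit drawn. Leaving out withdrawn mouse 2 took Fbln2 from 0.47 to -0.15 and Fbn2 to 0.22 (SE 0.68), a bar that also spans 0.

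Withdrawn mouse 2 differed from the other withdrawn mice in both directions. Its value was the lowest of the withdrawn mice for 4 of the 9 members compared, Fbln1, Efemp1, Efemp2 and Mfap4, and the highest for 3, Fbln2, Fbn2 and Eln. Fbln1, Efemp1 and Efemp2 shared the pattern of withdrawn mice 1, 3, 4 and 5 above every naïve mouse with withdrawn mouse 2 not above them, a pattern of 2.41% of all genes compared. The libraries of withdrawn mice 2 and 4 had the fewest gene counts (8696939 and 7351567) and the largest shares of reads outside exons (39.6% and 48.1%, against at most 31.5% in the other mice). Mouse 2 also had the highest level of Gad2, a gene of GABAergic neurons (130 CPM, against at most 62.9 in the others), and mouse 4 had the highest Fbln1, Efemp1 and Fbln5. The part of these library properties in the fibulin values was not tested.

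Correlations of log2 CPM between members, taken as deviations from the group means over the 11 mice, describe which genes varied together from mouse to mouse. Each pair of values comes from 1 library and shares its depth and its mixture of cells. Efemp1 and Efemp2 had r = 0.84, Fbln1 and Efemp2 0.82, and Fbln1 and Efemp1 0.68. Over the 10 mice without withdrawn mouse 2 these were 0.14, 0.42 and 0.01, so that the likeness within this trio lay largely in that mouse. Efemp1 and Mfap4 had r = 0.77, and 0.47 without it. Fbln5 and Eln had r = 0.89, Fbln2 and Fbln5 0.79, and Fbn1 and Eln 0.72. Without withdrawn mouse 2 these 3 pairs had values of 0.90, 0.81 and 0.78. Efemp1 then varied with these genes more than with Fbln1 or Efemp2, with r = 0.84 for Fbn1, 0.64 for Eln and 0.58 for Fbln5, where all 11 mice had given 0.49, 0.06 and 0.19. Naïve mouse 5 had no count for Efemp1, Fbn1, Eln, Fbln5 or Mfap4 and was kept in all these values. The part of this shared absence in the correlations was not tested.

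Levels of different genes were compared per kilobase of exon. In naïve mice the order of mean level was Efemp1 (3.70 CPM per kilobase), Fbln1 (3.49), Efemp2 (2.80), Fbln2 (2.09), Mfap4 (0.898), Fbln5 (0.814), Eln (0.453), Fbn2 (0.405), Fbn1 (0.401) and Mfap5 (0.0834). No neighbours in this order differed by more than the larger of their SDs. In withdrawn mice Efemp1 (153) and Fbln1 (46.9) stood at the head, followed by Efemp2 (9.49), Fbln5 (4.31), Mfap4 (3.00), Fbln2 (2.89), Fbn1 (2.51), Eln (0.665), Fbn2 (0.663) and Mfap5 (0.351). There the steps from Fbln1 to Efemp2 and from Fbn1 to Eln exceeded the larger SD, and Efemp1 exceeded Fbln1 in 4 of 5 mice.

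The make-up of the family differed accordingly between mice. Fbln1 and Efemp1 together held 29.9% to 68.7% of the summed level per kilobase in naïve mice. They held 89.7%, 90.9%, 92.7% and 84.7% in withdrawn mice 1, 3, 4 and 5, and 21.7% in withdrawn mouse 2, where Fbln2 led with 30.5%. The sum itself was 9.42 to 24.7 CPM per kilobase in naïve mice, against 323, 234, 445 and 95.7 in withdrawn mice 1, 3, 4 and 5. Withdrawn mouse 2, at 22.3, lay within the naïve range of this measure. In summed CPM, not divided by length, it was at 157, above the naïve range of 39.7 to 98.1. As Fbln1 is in these sums and was chosen for its rise, they describe the mice and are no test.

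**Figure D3:**
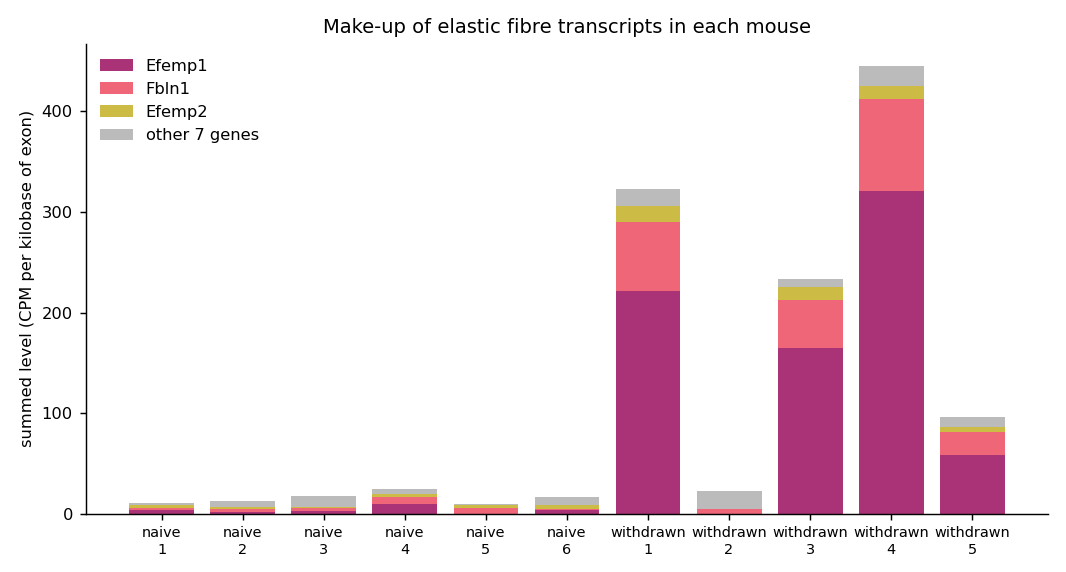
Summed level of the 10 elastic fibre genes in each mouse (CPM per kilobase of exon, linear axis from 0), split into Efemp1, Fbln1, Efemp2 and the other 7 genes. Withdrawn mice 1, 3, 4 and 5 reach 95.7 to 445, most of it Efemp1, and withdrawn mouse 2 (22.3) is within the naïve range of 9.42 to 24.7.

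The genes whose log2 CPM deviated most like that of Fbln1 over the 11 mice, among 17092 others, were Gm10544 (r = 0.94), Fkbp5 (0.94), Serping1 (0.93), Brd8 (0.93) and 5730480H06Rik (0.93). Over the 10 mice without withdrawn mouse 2 these values were 0.85, 0.86, 0.82, 0.85 and 0.80. For Efemp1, the member with the highest level per length, they were F3 (0.98), Pitrm1 (0.98), Gstt3 (0.97), Fxyd5 (0.97) and Igfbp2 (0.97), and without withdrawn mouse 2 0.94, 0.93, 0.92, 0.89 and 0.91. Deviations are taken within groups, but withdrawn mouse 2 lay far below the other withdrawn mice for Fbln1 and Efemp1. Genes raised only in those other mice can therefore rank high, and for such genes this likeness is not separate from the difference between groups. For Efemp1, naïve mouse 5 (log2 CPM -2.80, no count) also lay far below the nearest naïve mouse (1.98). The part of that mouse in these values was not tested. Log2 fold changes were 3.94 (F3), 2.65 (Gstt3), 3.26 (Fxyd5) and 4.25 (Igfbp2), and -0.08 for Pitrm1. They were 2.16 (Fkbp5) and 4.12 (Serping1), and -0.12 (Gm10544), -0.08 (Brd8) and 0.005 (5730480H06Rik). The correlations are the highest of many and were not tested. Fkbp5, a stress-responsive co-chaperone of the glucocorticoid receptor, averaged 34.5 CPM in naïve and 154 CPM in withdrawn mice, whereas Brd8 averaged 93.3 and 88.5 CPM.

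The wider machinery of elastic fibres was followed in 38 further genes, of which 26 were compared. Of these, 23 had a log2 fold change above 0 and 3 below, with a median of 1.51, beside 51.8% above 0 and a median of 0.02 over all genes. The 3 below 0 were Adamts6 (-1.07, SE 1.51), Mmrn2 (-0.83, SE 1.08) and Adamtsl2 (-0.60, SE 0.44). None of the 26 was called by edgeR, and 10 had an unadjusted p under 0.05, all higher in withdrawn mice, beside 5.00% of all genes. Of the 7 that had at least 10 counts in every mouse, edgeR called Itgb1 in a fit of such genes alone (0.273% of those were called higher). DESeq2, which gave a fold change for all 38, called 8 as higher (0.838% of 40831 genes): Adamtsl3, Itgb1, Itgb5, Lox, Loxl1, Ltbp3, Mmp14 and Thsd4. This list too was drawn up with earlier results known. A gene low in naïve mice, such as Loxl1, entered the comparison through its level in withdrawn mice, which favours values above 0.

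The lysyl oxidases, which cross-link elastin and collagen, differed among themselves, and 2 of the 5 were compared. Loxl1, a lysyl oxidase of elastin, had 0, 4, 0, 1, 0 and 0 counts in naïve mice 1 to 6 and 135, 15, 158, 42 and 103 counts in withdrawn mice 1 to 5, with no overlap between the groups in CPM. Its fitted log2 fold change of 6.69 (SE 1.11, edgeR adjusted p = 0.0729, DESeq2 adjusted p = 5.34e-10) depends on the small count added to the naïve values. Lox itself had 0 counts in 4 naïve mice and 1 count in each of naïve mice 3 and 4, against 31, 0, 202, 106 and 0 counts in the withdrawn mice, and did not pass the filter. Loxl3 was at 1.61 ± 1.63 CPM (SD, n = 6) and 1.64 ± 1.99 CPM (SD, n = 5).

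Microfibril partners were mixed. Ltbp3, a latent TGF-β binding protein, was at 0 to 11.6 CPM in naïve mice and at 64.5, 33.1, 48.5, 48.8 and 13.8 CPM in withdrawn mice 1 to 5. All 5 withdrawn mice, mouse 2 included, were above every naïve mouse (log2 fold change 2.72, SE 0.76, edgeR adjusted p = 0.265, DESeq2 adjusted p = 0.0201). Ltbp4, which works with fibulin-5, was the highest of its family per length and differed little, at 65.9 ± 37.6 and 74.2 ± 19.5 CPM (log2 fold change 0.17, SE 0.41). Ltbp1 had a log2 fold change of 0.62 (SE 1.14).

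Emilin1, an elastin-associated glycoprotein, averaged 2.81 ± 3.63 CPM in naïve and 52.8 ± 46.0 CPM in withdrawn mice (log2 fold change 4.22, SE 1.28, edgeR adjusted p = 0.327). Its values of 117, 0.224, 45.6, 78.4 and 22.9 CPM in withdrawn mice 1 to 5 placed mouse 2 low, as for Efemp1. The log2 fold changes of Mfap2 (1.45, SE 0.89) and Tnxb (1.68, SE 1.02), and of Fbln7 (1.85, SE 1.30), Hmcn1 (1.57, SE 0.85) and Hmcn2 (2.07, SE 1.203) of the wider fibulin family, were not called by either tool.

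The 7 ADAMTS and ADAMTS-like genes compared had a median log2 fold change of 0.457, with 5 above 0 and 2 below. Adamtsl3, an ADAMTS-like matrix protein and the highest of them, was at 0 to 2.97 CPM in naïve mice and at 144, 0.224, 67.5, 111 and 38.9 CPM in withdrawn mice. The log2 fold change was 5.92 (SE 1.16, edgeR adjusted p = 0.0931, DESeq2 adjusted p = 0.000544). Thsd4, another ADAMTS-like protein that promotes fibrillin-1 deposition, was at 23.8 ± 5.43 and 57.9 ± 34.8 CPM (1.28, SE 0.35, edgeR adjusted p = 0.264, DESeq2 adjusted p = 0.0445). Among proteases, Mmp14 was at 0 to 3.13 CPM in naïve mice and 31.8, 0.336, 37.0, 65.7 and 18.0 CPM in withdrawn mice (4.94, SE 1.183, edgeR adjusted p = 0.167). Ctsk, a collagen- and elastin-degrading cathepsin, had a log2 fold change of 3.70 (SE 1.27, edgeR adjusted p = 0.451).

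Of the integrin subunits that can bind fibulin and fibrillin sequences, Itgb1 was at 28.3 to 68.8 CPM in naïve mice and at 230, 59.0, 148, 257 and 72.2 CPM in withdrawn mice. The log2 fold change was 1.75 (SE 0.37, edgeR adjusted p = 0.118, DESeq2 adjusted p = 0.00280). Itga5 had a log2 fold change of 2.14 (SE 0.94, edgeR adjusted p = 0.651). Of the 38 genes 7, Emilin1, Adamtsl3, Mmp14, Ctsk, Itgav, Itga5 and Itgb1, were above every naïve mouse in withdrawn mice 1, 3, 4 and 5 but not in mouse 2. All 7 were among the 26 compared. Fbln1, Efemp1 and Efemp2 had the same pattern, which 2.41% of all genes compared showed.

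**Figure D4:**
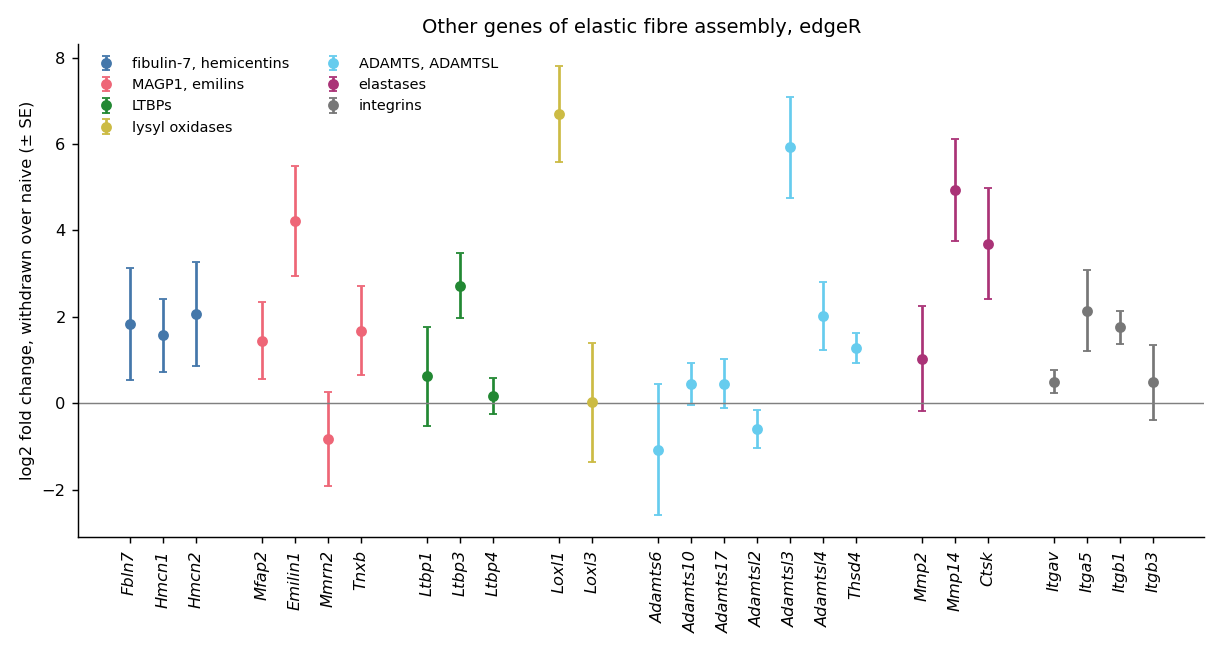
Log2 fold changes (withdrawn over naïve, ± SE, edgeR over 11 mice) of the 26 compared genes of elastic fibre assembly outside the 10 members, coloured by role. Loxl1 (6.69), Adamtsl3 (5.92), Mmp14 (4.94) and Emilin1 (4.22) are highest, and 3 genes lie below 0.

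Fibroblasts are a main source of elastic fibre proteins, and part of their markers were high in the same mice. Of 10 markers 4, Col1a1, Col1a2, Ogn and Foxc1, had the pattern of Fbln1, Efemp1 and Efemp2, which 2.41% of all genes compared showed. The summed level of 10 fibroblast markers was 0.0677 to 75.7 CPM in naïve mice and 1393, 21.4, 689, 975 and 230 CPM in withdrawn mice 1 to 5. Of the 10 markers 7 were compared, all 7 with a log2 fold change above 0, 6 with an unadjusted p under 0.05 and none called by edgeR, whereas DESeq2 called 4. The shares of all genes were 51.8%, 5.00%, 0.00585% and 0.838%. A marker low in naïve mice could enter the comparison through its level in withdrawn mice. Over all 10 markers, DESeq2 had 8 above 0 and 2, Lum and Igf2, below. Without withdrawn mouse 2, edgeR called Col1a1 and Ogn (1.06% of all genes), and DESeq2 called Col1a1, Col1a2, Dcn, Ogn and Foxc1 (1.28%). Each gene called there had its lowest withdrawn value in mouse 2, so leaving that mouse out favours these calls. The collagen gene Col1a1 was at 378, 3.02, 151, 225 and 70.0 CPM in withdrawn mice 1 to 5 and at most at 16.5 CPM in a naïve mouse. Col1a2 and Ogn likewise had mouse 2 apart from the other 4. Foxc1 was at 73.8, 3.02, 17.6, 42.2 and 4.95 CPM, where mouse 5 lay close to mouse 2 and to the highest naïve mouse (3.97 CPM).

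The remaining fibroblast markers were less uniform. Dcn was higher in all 5 withdrawn mice than in any naïve mouse, with means of 2.51 and 23.2 CPM, although mouse 2 (5.26 CPM) was barely above the highest naïve mouse (5.22 CPM). Lum averaged 1.36 ± 2.70 CPM in naïve and 0.910 ± 1.08 CPM in withdrawn mice, and Igf2 0.468 ± 0.433 and 0.0916 ± 0.121 CPM. The part of fibroblast RNA in the fibulin values was not tested.

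Other cell types were measured in the same way. The summed astrocyte markers were at 33.7 to 172 CPM in naïve and 22.1 to 371 CPM in withdrawn mice, where Gja1, a gap junction gene of astrocytes and also of fibroblasts, went from a mean of 15.3 to 187 CPM while Gfap was at 12.2 and 1.06 CPM. Endothelial markers were at 11.2 to 437 and 38.2 to 368 CPM, and smooth muscle and pericyte markers at 0.203 to 103 and 14.6 to 204 CPM. Microglial markers were at 0 to 7.22 and 6.87 to 17.5 CPM, oligodendrocyte markers at 135 to 270.0 and 109 to 248 CPM, oligodendrocyte precursor markers at 0 to 14.8 and 7.71 to 27.4 CPM, and ependymal and choroid plexus markers at 0 to 3.56 and 2.62 to 27.2 CPM. Markers of glutamatergic neurons were at 1749 to 3113 and 1323 to 2766 CPM, and of GABAergic neurons at 62.1 to 233 and 22.7 to 470.0 CPM. Over all 11 mice none of the genes on these 9 lists was called by edgeR (0.00585% of all genes) or by DESeq2 (0.838% as higher). Of those compared, 4 had an unadjusted p under 0.05 in edgeR, all higher in withdrawn mice (5.00% of all genes). They were Pdgfrb (of 5 compared on its list), Gja1 (of 5), Tmem119 (of 3) and Ttr (of 2). The other lists, with 6 endothelial, 5 oligodendrocyte, 3 oligodendrocyte precursor, 5 glutamatergic and 5 GABAergic genes compared, had none. Without withdrawn mouse 2, Gja1 was called by edgeR (adjusted p = 0.0396, 1.06% of all genes called higher) and by DESeq2 (adjusted p = 0.0183, 1.28%). The microglial gene Tmem119 was then called by DESeq2 (adjusted p = 0.0347). Mouse 2 was the lowest withdrawn mouse for both genes. The part of these cells in the fibulin values was not tested.

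**Figure D5:**
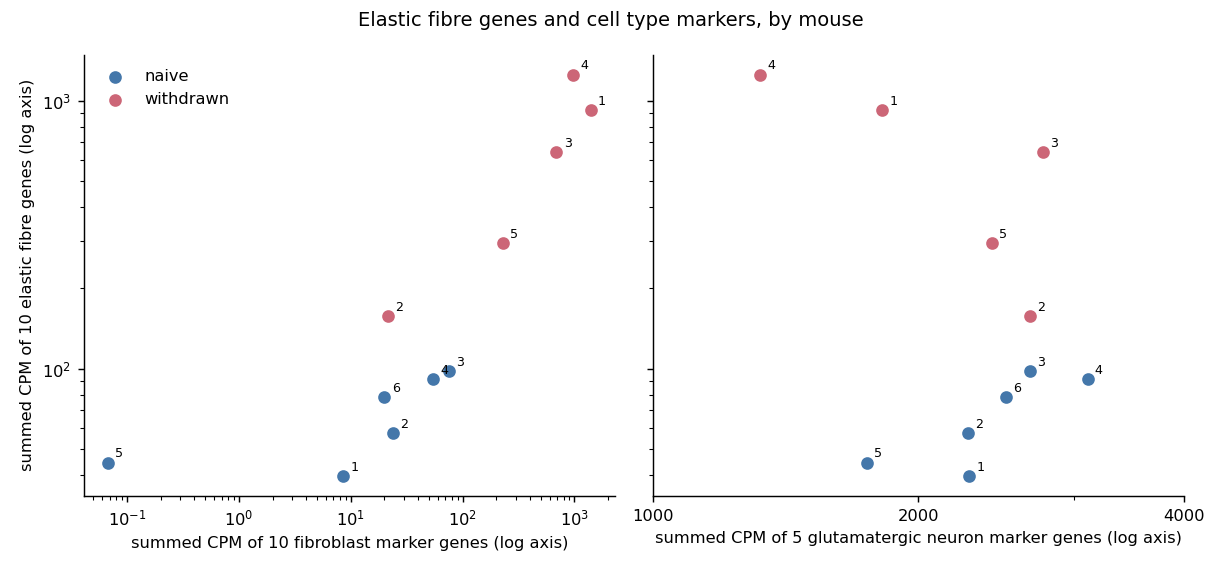
Summed CPM of the 10 elastic fibre genes in each mouse against the summed CPM of 10 fibroblast markers (left) and 5 glutamatergic neuron markers (right), log axes, points numbered by mouse. Withdrawn mice 1, 3, 4 and 5 lie at the top right of the fibroblast plot (230 to 1393 CPM of fibroblast markers), and withdrawn mouse 2 (21.4 CPM) lies among the naïve mice on that axis. Its summed CPM of elastic fibre genes (157) is above every naïve mouse (at most 98.1).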

How the data were processed

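RNA of sorted mPFC CRF1+ cells was sequenced from 6 naïve and 5 withdrawn mice. The authors trimmed reads with cutadapt, mapped them with STAR to GRCm38 (Ensembl annotation) and counted reads per gene with HTSeq. The deposited values are these raw counts, 1 library per mouse, without normalization or pooling, and the reads come from amplified cDNA, so that the floor of 3 counts covers counting error only. Symbols and positions were taken from GENCODE M21 on GRCm38 (53360 of 53465 identifiers had a symbol), an annotation release other than the authors'.

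Counts were compared by edgeR 4.0.16 (R 4.3.3; TMM; filterByExpr by group, minimum count 10, minimum total 15; quasi-likelihood test; Benjamini-Hochberg adjustment over all genes). Calls required an adjusted p no higher than 0.05 together with a log2 fold change larger than 0.6 in size. SE is the log2 fold change divided by the square root of F. CPM used TMM library sizes, log2 CPM a prior count of 2, and levels between genes were divided by merged exon length. DESeq2 1.42.0 (Wald test, every gene that had 1 count or more) was an alternative. The other alternatives were other normalizations and filters, a replicate block, fits without each mouse and without the 3 mice with conflicting labels. The test was tested on simulated data.

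Mice were grouped by title and treatment label. Chi-square per degree of freedom between libraries was at least 25.6, so none was counted as a duplicate. The members and gene lists were chosen with earlier results of these data known. Named were all members, the gene with the highest level per length and the 2 with the smallest unadjusted p of each related list, the 5 genes most like Fbln1 and like Efemp1, and markers that moved with a result. Lox, Itgav, Itgb5, the related genes called by DESeq2, Gad2, Pdgfrb, Tmem119 and Ttr were named after their values were seen. So were Csf1r, Aif1 and the related genes with a log2 fold change below 0.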

Additional observations from a re-analysis of the deposited data

Results flagged for a closer look

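In 4 of the 22 groups of values examined (each of the 10 genes and their sum per kilobase, in each group), 1 mouse lay farther from its group than Dixon's limit, where chance alone flags about 5% of groups, or about 1.1 of 22. Efemp1 had a log2 CPM of -2.80 (no count) in withdrawn mouse 2, with the nearest withdrawn mouse at 6.90. Efemp1 had the same log2 CPM of -2.80 (no count) in naïve mouse 5, with the nearest naïve mouse at 1.98. Efemp2 was at -0.11 in withdrawn mouse 2, with the nearest at 4.23. Fbn1 was at -2.80 (no count) in naïve mouse 5, with the nearest at 1.74. Both mice thus stood apart for more than 1 gene of the family. Groups of values of the same mouse are not independent of each other.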

How the results depend on the processing

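The count of called members other than Fbln1 was 0 over all 11 mice by edgeR, 2 by DESeq2 (Efemp1, Fbn1), 1 without a filter on low counts (Efemp1) and 3 by DESeq2 without withdrawn mouse 2, a fit added after seeing the data. Over the fits leaving out 1 mouse it ranged from 0 to 2, with 2 only without withdrawn mouse 2. For the 38 related genes these counts were 0 by edgeR, 8 by DESeq2, 5 without a filter (which called 137 of 41907 genes in all), 1 with at least 10 counts in every mouse (Itgb1, of 30 called among 10619), 10 by DESeq2 without withdrawn mouse 2, and 0 to 5 over the left-out mice (1 without naïve mouse 2, when 6 of 16235 genes were called, and 5 without withdrawn mouse 2, when 193 of 18170 were). The log2 fold change of Fbln2 reversed without withdrawn mouse 2, to -0.15 by edgeR and -0.092 by DESeq2 (range -0.15 to 1.01 over the left-out mice), and the other 8 members compared had a positive log2 fold change in every fit made, from 0.22 to 1.22 for Fbn2 and from 0.08 to 1.56 for Eln over the left-out mice. The same-numbered mice are different animals and their deviations correlated between -0.20 and 0.18, so the numbers give no pairing. With a replicate block 0 members and 0 related genes were called, and the log2 fold change was 3.21 for Fbln1, 3.86 for Fbln5 and 1.79 for Eln. Without the 3 mice with conflicting labels 0 members and 0 related genes were called, and Efemp1 had a log2 fold change of 4.88 and Fbn1 of 2.93. That fit kept only withdrawn mice 1 and 2, and mouse 2 had no Efemp1 count. Other scalings moved the median of all genes by at most 0.03. At these depths Mfap5 and Lox did not pass the filter on low counts.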
